A study of Arabidopsis thaliana with 6 samples.

Results

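A set of 32 genes for the cuticle, its waxes and the differentiation of the epidermis was followed in Arabidopsis thaliana root explants that were forming new shoot meristems. The genes were chosen for their known roles, with earlier results of these data known, and all 32 were found by locus identifier among the 26726 genes of the deposited expression table. Calli had been induced from the explants for 5 days on CIM and shoots for 7 days on SIM, both in constant light at 22 °C. The shoot medium held a cytokinin, N6-(2-isopentenyl)adenine at 1 mg/L, together with IAA, an auxin, at 0.15 mg/L. All 3 genotypes went through the same media and gave 2 libraries each. They were wild type (WT), arr1, labelled as a mutant in that gene alone, and Pro35SARR1, where ARR1 is driven by 35S, a promoter active in nearly all plant tissues. ARR1 encodes a type-B response regulator, the kind of transcription factor on which the cytokinin phosphorelay acts. The sources used here name neither the wild-type accession nor the arr1 allele, nor how many independent Pro35SARR1 lines there were. The labels do not state separate cultures for the libraries of a genotype, so the spread behind each p-value is that between libraries and may be technical.

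The cuticle is a lipid layer that only epidermal cells lay down on the outer face of the shoot. Its polymer, cutin, is built from hydroxylated fatty acids joined to glycerol, and its waxes are alkanes, alcohols, aldehydes and ketones made from fatty acids that have been elongated in the endoplasmic reticulum. Both are carried to the surface by ABC transporters of the plasma membrane and by lipid transfer proteins. ATML1 and PDF2, homeodomain proteins of the outermost cell layer (L1), bind a short motif called the L1 box and keep that layer epidermal. Roots instead seal their endodermis with a related polymer, suberin, which shares some of the same enzyme families.

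Estimated counts summed to between 8193313 and 9381532 per library. Levels are given as CPM, counts scaled to the library size and by TMM factors, which correct for differences in RNA composition, and a floor of 3 counts lay between 0.335 and 0.345 CPM. ARR1 itself (AT3G16857) was at 61.4 and 59.8 CPM in WT, at 61.2 and 58.7 CPM in both libraries labelled arr1, and at 1725 and 1909 CPM in Pro35SARR1. Its level thus separated Pro35SARR1 from WT (log2 fold change 4.91, SE 0.117, adjusted p = 0.000397, edgeR quasi-likelihood test) and did not separate the libraries labelled arr1 from WT (log2 fold change −0.02, SE 0.102, adjusted p = 0.949), so the direction of each difference from arr1 depends on the label alone. RNA of root cell types was present in all libraries, with the endodermal regulator MYB36 at 24.2 to 59.9 CPM.

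Of the 32 genes, 29 had counts high enough to be tested and 3 did not. The subtilase gene ALE1 (AT1G62340), needed for the cuticle of the embryo, was at 0 in all 6 libraries. CER4 (AT4G33790), which makes primary alcohols of wax, was at 0.121 and 0.105 CPM in WT and at 0 elsewhere. WIN1 (AT1G15360), an AP2-type activator of cutin genes, was at 0.113 and 0.292 CPM in both libraries labelled arr1 and at 0 elsewhere. Each of these CER4 and WIN1 values is below the floor, so none of the 3 genes gave a difference that could be read.

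Scaled for transcript length (FPKM), the lipid transfer protein gene LTP1 had the highest level of the set in every genotype, at 890.4 ± 196 FPKM (SD, n = 2) in WT. The elongation genes KCR1 and PAS2 came next in WT, at 120.7 ± 19.6 and 85.7 ± 3.85 FPKM. PDF1 was the tenth gene in WT, at 28.3 ± 15.2 FPKM, a level that did not separate from those of its neighbours LACS2 and CYP86A8 within their SDs. In the libraries labelled arr1 PDF1 was second only to LTP1, at 406 ± 24.1 FPKM against 1295 ± 130 FPKM, and LTPG1 came next at 225 ± 18.3 FPKM. In Pro35SARR1 the first 5 places were held by LTP1, KCR1, PAS2, LTPG1 and CER10, in the same order as in WT, and CER1 stood sixth at 42.2 ± 10.7 FPKM, a level that its SD did not separate from those of GPAT6 and KCS1. The ranks of LTP1 and GPAT4 may be affected by reads shared with the close relatives LTP2 and GPAT8.

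**Figure D1:**
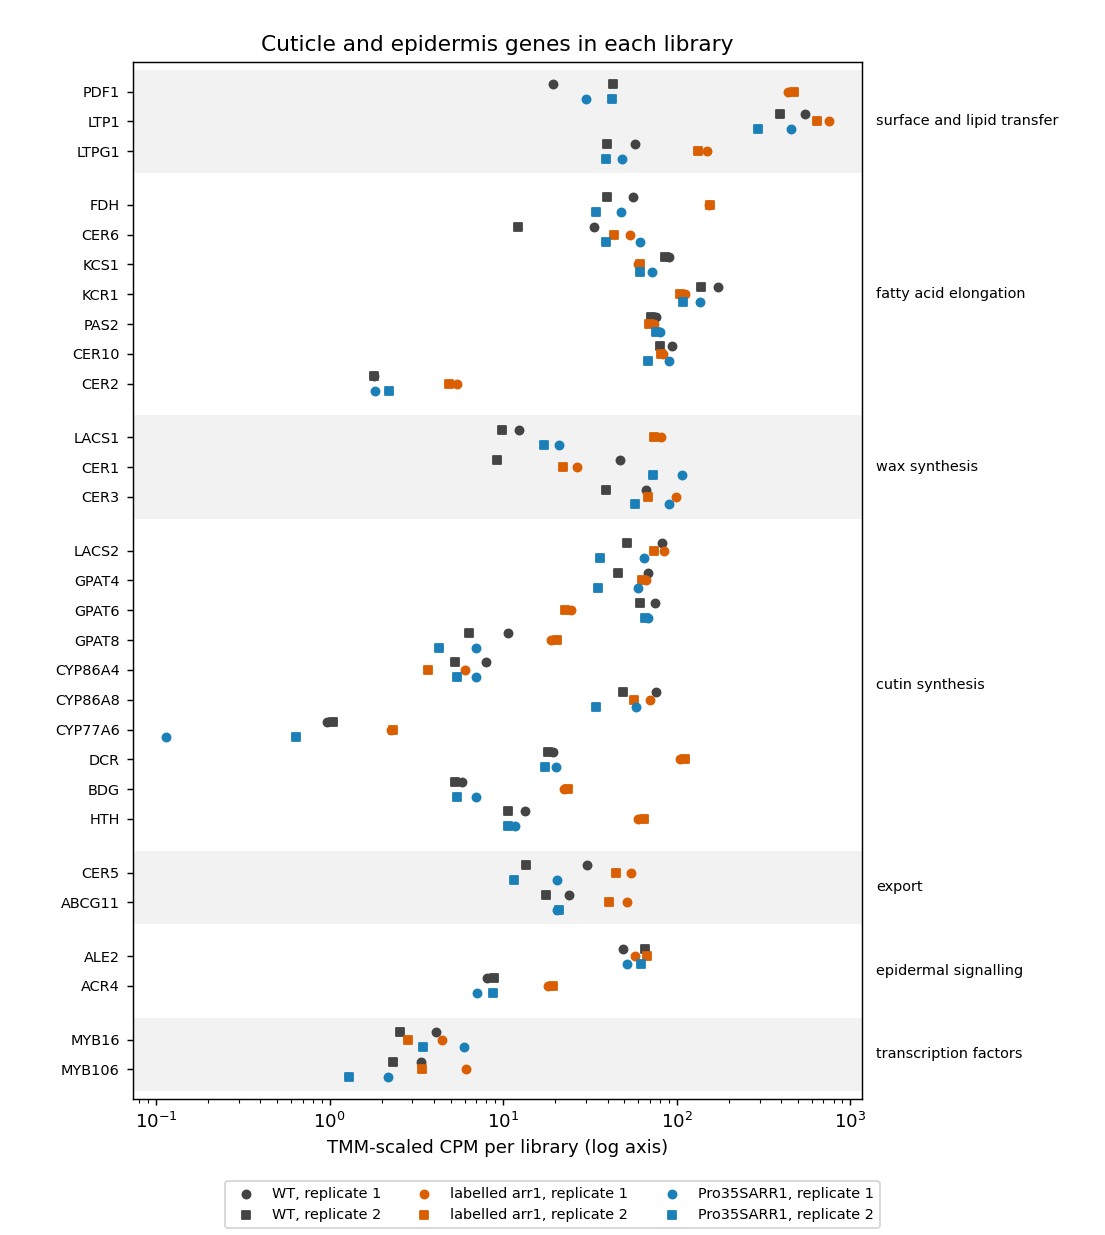
Level of the 29 tested genes in each library, in TMM-scaled CPM on a log axis, grouped by role; circles are replicate 1 and squares replicate 2 of WT (grey), the libraries labelled arr1 (orange) and Pro35SARR1 (blue). PDF1, LTPG1, FDH, LACS1, DCR, BDG, HTH and ACR4 lie to the right of both WT libraries in both libraries labelled arr1, and GPAT6 lies to the left.

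The first comparison asked how the arr1 mutant differed from wild type. In the libraries labelled arr1, 8 of the 29 tested genes were higher than in WT and 1 was lower at an adjusted p under 0.05 (edgeR quasi-likelihood test with Benjamini-Hochberg adjustment over 18083 genes). Over all genes tested 1.09% were higher and 1.9% lower. The genes that rose were PDF1 and LTPG1 of the surface, the elongase FDH, the acyl-CoA synthetase LACS1, the cutin genes DCR, BDG and HTH, and the receptor kinase gene ACR4. The gene that fell was GPAT6, an acyltransferase of cutin synthesis. The median log2 fold change of the 29 genes was 0.72, beside 0.00 over all genes tested. Libraries did not overlap in the upward direction for 18 of the 32 genes and in the downward direction for 4, WIN1 and CER4 among them with values below the floor, beside 27.1% and 27.3% of all genes tested. With the replicate number as a block 15 genes were higher and 3 lower, beside 6.23% and 9.51% of all genes tested. The number of calls depended on each library: it was 4 without WT replicate 1, 5 without WT replicate 2, 0 without either arr1 replicate, and 3 without either Pro35SARR1 replicate, with no called gene changing its sign. The libraries of the called genes did not overlap between the 2 genotypes, so leaving out 1 library could hardly have reversed a sign. In RNA from whole explants, more cells of a type and more RNA per cell cannot be told apart.

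PDF1, an L1-specific proline-rich protein of the cell wall, differed most. In the deposited coordinates the gene lies on chromosome 2 from 17826116 to 17827536 (AT2G42840). It was at 19.4 and 42.8 CPM in the WT libraries, at 438 and 472 CPM in those labelled arr1, and at 30.0 and 42.2 CPM in Pro35SARR1. Both libraries labelled arr1 stood far above the other 4, among which WT and Pro35SARR1 overlapped. The difference from WT was 14.6-fold (log2 fold change 3.87, SE 0.40, adjusted p = 0.0247, edgeR). Its size depended on the WT libraries, with a log2 fold change of 4.54 without WT replicate 2 and of 3.40 without WT replicate 1. LTPG1 (AT1G27950, chromosome 1, 9740704 to 9742159), a lipid transfer protein anchored to the plasma membrane that carries wax lipids outward, was at 57.2 and 39.4 CPM in WT, at 149.5 and 132 CPM in both libraries labelled arr1, and at 48.2 and 39.2 CPM in Pro35SARR1. Its 2.92-fold rise also left no overlap between WT and the libraries labelled arr1 (log2 fold change 1.54, SE 0.210, adjusted p = 0.0339). LTP1 (AT2G38540), a secreted lipid transfer protein abundant in epidermal cells, was at 545 and 395 CPM in WT, at 750.5 and 646 CPM in both libraries labelled arr1, and at 452 and 292 CPM in Pro35SARR1. Both libraries labelled arr1 lay above the other 4, among which WT and Pro35SARR1 overlapped, yet LTP1 did not pass against WT (log2 fold change 0.57, SE 0.254, adjusted p = 0.262) unless replicates were blocked (adjusted p = 0.0232).

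Fatty acid elongation showed no common direction. FDH (AT2G26250, chromosome 2, 11170418 to 11173142), a ketoacyl-CoA synthase whose loss lets young shoot organs fuse, was at 56.3 and 39.4 CPM in WT, at 154 and 156 CPM in both libraries labelled arr1, and at 47.8 and 34.1 CPM in Pro35SARR1. The rise over WT was 3.23-fold, with no overlap (log2 fold change 1.69, SE 0.228, adjusted p = 0.0339, edgeR). CER6 (AT1G68530), the main ketoacyl-CoA synthase of shoot wax, was at 33.4 and 12.2 CPM in WT, at 54.0 and 43.7 CPM in both libraries labelled arr1, and at 61.2 and 39.2 CPM in Pro35SARR1. WT replicate 1 was far above WT replicate 2, and the difference from WT passed only with the block (log2 fold change 1.098, SE 0.473, adjusted p = 0.249, against adjusted p = 0.0322 with the block). CER2 (AT4G24510), an acyltransferase-like protein needed for the longest wax chains, was low throughout, at 1.81 and 1.79 CPM in WT, 5.44 and 4.87 CPM in both libraries labelled arr1, and 1.82 and 2.19 CPM in Pro35SARR1. With edgeR it too passed against WT only with the block (log2 fold change 1.51, SE 0.342, adjusted p = 0.0793, against 0.0439 with the block), and it passed with limma on log2(FPKM + 1) without a block (adjusted p = 0.0342). CER2 overlaps a gene on the other strand whose reads may be mixed with its own.

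Of the other elongation genes, KCR1, PAS2 and CER10 serve all very-long-chain fatty acids, those of membranes and suberin included. KCS1 (AT1G01120), another ketoacyl-CoA synthase, was at 89.8 and 85.3 CPM in WT, at 60.0 and 61.8 CPM in both libraries labelled arr1, and at 72.3 and 61.8 CPM in Pro35SARR1. KCR1 (AT1G67730), the ketoacyl reductase of the elongase, was at 174 and 137 CPM in WT, at 112 and 104 CPM in both libraries labelled arr1, and at 135.5 and 109 CPM in Pro35SARR1. Both were lower in the libraries labelled arr1 than in WT without overlap, and both passed with edgeR only with the block (log2 fold changes −0.52 and −0.52, adjusted p = 0.0763 and 0.150 without it and 0.0231 and 0.0203 with it). KCS1 also passed under DESeq2 without a block (adjusted p = 0.0368). PAS2 (AT5G10480), the dehydratase, and CER10 (AT3G55360), the enoyl reductase, ranged over all 6 libraries from 69.3 to 80.4 CPM and from 68.7 to 94.1 CPM, and neither passed with or without the block.

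In wax synthesis the genes behaved differently from one another. LACS1 (AT2G47240, chromosome 2, 19392558 to 19397831), a synthetase that activates long fatty acids for wax and cutin, was at 12.3 and 9.91 CPM in WT, at 81.4 and 74.2 CPM in both libraries labelled arr1, and at 21.1 and 17.2 CPM in Pro35SARR1. The 3 genotypes did not overlap, and the rise in the libraries labelled arr1 was 7.01-fold (log2 fold change 2.81, SE 0.174, adjusted p = 0.0117, edgeR). These are sums over both LACS1 isoforms, whose split was unstable: isoform 2 took between 0.0071% and 78.5% of the estimated count in single libraries. CER3 (AT5G57800), a partner of CER1 in making alkanes, was at 66.9 and 39.2 CPM in WT, at 98.4 and 68.5 CPM in both libraries labelled arr1, and at 89.8 and 57.4 CPM in Pro35SARR1. Replicate 1 was the higher library in each genotype, and CER3 passed against WT only with the block (log2 fold change 0.65, SE 0.345, adjusted p = 0.331, against 0.0115 with the block). CER1 (AT1G02205), the core enzyme of alkane formation, was at 47.0 and 9.17 CPM in WT, at 26.5 and 22.2 CPM in both libraries labelled arr1, and at 108 and 73.3 CPM in Pro35SARR1. Its WT libraries lay on either side of those labelled arr1, and the difference did not pass (log2 fold change −0.21, SE 0.683, adjusted p = 0.888). Without WT replicate 1 it was positive (log2 fold change 1.39).

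Cutin synthesis held 3 of the 8 genes that rose. DCR (AT5G23940, chromosome 5, 8076329 to 8079793), an acyltransferase needed for cutin, was at 19.3 and 18.1 CPM in WT, at 105 and 112 CPM in both libraries labelled arr1, and at 20.1 and 17.4 CPM in Pro35SARR1. Both libraries labelled arr1 were 5.78-fold above WT on the fitted scale (log2 fold change 2.53, SE 0.126, adjusted p = 0.00704, edgeR), while the WT range lay inside that of Pro35SARR1. HTH (AT1G72970, chromosome 1, 27452766 to 27455964), an oxidoreductase that helps to form the dicarboxylic acids of cutin and keeps floral organs apart, was at 13.4 and 10.7 CPM in WT, at 60.2 and 65.0 CPM in both libraries labelled arr1, and at 11.7 and 10.7 CPM in Pro35SARR1. Its rise was 5.19-fold (log2 fold change 2.38, SE 0.161, adjusted p = 0.0128). BDG (AT1G64670, chromosome 1, 24030820 to 24033556), an extracellular hydrolase of the outer epidermal wall, was at 5.79 and 5.27 CPM in WT, at 22.6 and 23.8 CPM in both libraries labelled arr1, and at 6.95 and 5.40 CPM in Pro35SARR1. The rise of BDG was 4.19-fold (log2 fold change 2.07, SE 0.208, adjusted p = 0.0237), again with no overlap.

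The related glycerol-3-phosphate acyltransferases of cutin synthesis did not share a direction. GPAT6 (AT2G38110, chromosome 2, 15952532 to 15955494), best known for the cutin of flowers, was at 75.2 and 61.6 CPM in WT, at 24.6 and 22.6 CPM in both libraries labelled arr1, and at 68.1 and 66.1 CPM in Pro35SARR1. It was 2.90-fold lower in the libraries labelled arr1, without overlap (log2 fold change −1.54, SE 0.138, adjusted p = 0.0219, edgeR). GPAT8 (AT4G00400), which acts in cutin synthesis of leaves and stems, was at 10.6 and 6.33 CPM in WT, at 18.8 and 20.4 CPM in both libraries labelled arr1, and at 6.95 and 4.25 CPM in Pro35SARR1. It lay above WT in both libraries labelled arr1 and passed only with the block (log2 fold change 1.21, SE 0.338, adjusted p = 0.116, against 0.0305 with the block). GPAT4 (AT1G01610), its close relative and partner, was at 68.1 and 46.1 CPM in WT and 66.5 and 62.8 CPM in both libraries labelled arr1, which overlapped. The remaining cutin genes did not pass against WT with or without the block: LACS2 (AT1G49430), an acyl-CoA synthetase, and the hydroxylase CYP86A8 (AT2G45970) ranged from 36.2 to 84.0 CPM and from 34.4 to 76.3 CPM over the 6 libraries, and the hydroxylase CYP86A4 (AT1G01600) ranged from 3.70 to 7.96 CPM. CYP77A6 (AT3G10570), which adds the midchain hydroxyl group of floral cutin, was at 0.965 and 1.05 CPM in WT and 2.27 and 2.34 CPM in both libraries labelled arr1, and did not pass (adjusted p = 0.350).

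Export, signalling and regulation gave 1 further call. ABCG11 (AT1G17840), a transporter of both wax and cutin precursors, was at 24.0 and 17.5 CPM in WT, at 51.5 and 40.6 CPM in both libraries labelled arr1, and at 20.4 and 20.8 CPM in Pro35SARR1. The libraries labelled arr1 did not overlap the others, and the difference from WT fell just short of the threshold (log2 fold change 1.15, SE 0.203, adjusted p = 0.0502, edgeR) and passed with the block (adjusted p = 0.0088) and under DESeq2 without it (adjusted p = 0.00156). ABCG11 overlaps a gene on the other strand, and the sources used here do not say whether counting used strand. CER5 (AT1G51500), a second ABC transporter of wax, was at 30.3 and 13.5 CPM in WT, at 54.2 and 44.8 CPM in both libraries labelled arr1, and at 20.4 and 11.6 CPM in Pro35SARR1. It passed only with the block (log2 fold change 1.18, SE 0.428, adjusted p = 0.192, against 0.0177 with the block).

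ACR4 (AT3G59420, chromosome 3, 21959647 to 21963041), a receptor kinase of the L1 layer that also acts at root stem cells, was at 8.08 and 8.86 CPM in WT, at 18.3 and 19.5 CPM in both libraries labelled arr1, and at 7.07 and 8.75 CPM in Pro35SARR1. Its 2.22-fold rise left no overlap and passed by a small margin (log2 fold change 1.15, SE 0.193, adjusted p = 0.0468, edgeR). ALE2 (AT2G20300), a receptor-like kinase that acts with ACR4 in forming the cuticle, ranged from 49.0 to 67.1 CPM over the 6 libraries, with the genotypes overlapping. The MYB factors MYB16 (AT5G15310) and MYB106 (AT3G01140), which activate cuticle genes and shape epidermal cells, were low, at 2.53 to 5.93 CPM and at 1.29 to 6.12 CPM over all libraries. Neither passed against WT, with or without the block.

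**Figure D2:**
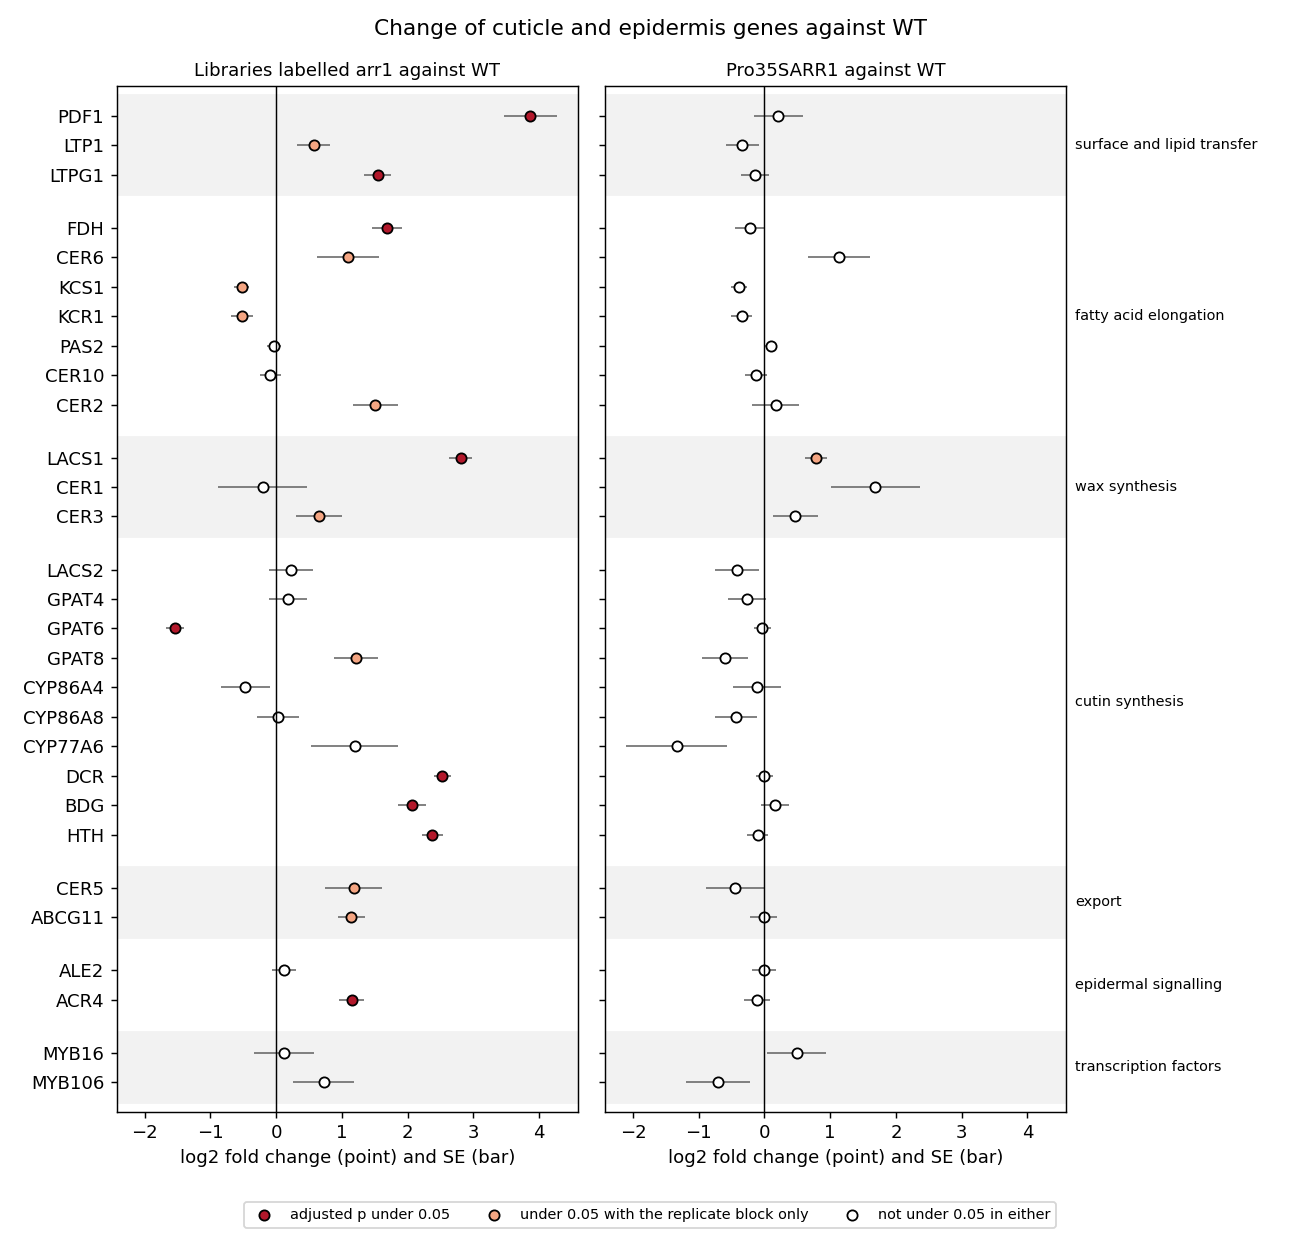
Log2 fold change against WT (points) with its SE (bars) for the 29 tested genes, grouped by role, in the libraries labelled arr1 (left) and in Pro35SARR1 (right); dark red marks an adjusted p under 0.05, light red one under 0.05 in the edgeR fit with the replicate block only. On the left 8 genes are dark red above 0 and GPAT6 below it; on the right no gene is dark red and LACS1 is light red.

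A further comparison asked what driving ARR1 from the 35S promoter did relative to wild type. None of the 29 tested genes passed in Pro35SARR1 against WT with edgeR, DESeq2 or limma, beside 0.0885% of all genes higher and 0% lower with edgeR. At an unadjusted p under 0.05, 2 of the 29 were higher (LACS1 and CER1) and 1 was lower (KCS1), beside 4.92% and 4.82% of all genes tested. The median log2 fold change was −0.11, beside 0.00 over all genes tested. Libraries did not overlap for 5 of the 32 genes in the upward and 5 in the downward direction, beside 18.7% and 18.6% of all genes. With the replicate block LACS1 passed as the 1 higher gene (adjusted p = 0.0427), beside 1.18% of all genes higher and 0.89% lower. Its libraries in Pro35SARR1, given above, both exceeded both WT libraries, and the log2 fold change was 0.79 (SE 0.173, adjusted p = 0.256 without the block). CER1 was higher than in WT in both Pro35SARR1 libraries by a log2 fold change of 1.69 with a large error (SE 0.677, adjusted p = 0.507), its 2 WT libraries being 5.13-fold apart. CYP77A6 stood at the other end of the range, with 0.114 and 0.643 CPM in Pro35SARR1, the first of them below the floor (log2 fold change −1.33, SE 0.768, adjusted p = 0.652). A p that misses the threshold with 2 libraries a genotype does not show equal levels: the SEs of single genes in this comparison ran up to 0.768 on the log2 scale.

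The last comparison set Pro35SARR1 against the libraries labelled arr1, the same arr1 libraries as in the first comparison, so the calls of both rest on them together. Here 1 of 29 tested genes was higher in Pro35SARR1 and 10 were lower (edgeR), beside 4.09% and 2.38% of all genes tested. The higher gene was GPAT6 (log2 fold change 1.51, SE 0.138, adjusted p = 0.0113). The lower genes were PDF1 (log2 fold change −3.66, SE 0.395, adjusted p = 0.0147), DCR (−2.53, SE 0.126, adjusted p = 0.00221), HTH (−2.48, SE 0.162, adjusted p = 0.00622), LACS1 (−2.02), FDH (−1.92), BDG (−1.91), GPAT8 (−1.81), LTPG1 (−1.69), ACR4 (−1.26) and ABCG11 (−1.16). Libraries did not overlap in the downward direction for 18 of the 32 genes and in the upward direction for 3, beside 29.8% and 28.9% of all genes. Of the 10 lower genes, GPAT8 and ABCG11 had not passed against WT with edgeR without the block. With the block 2 genes were higher and 15 lower, beside 11.5% and 8.82% of all genes. The block added CER1 to the higher genes, and CER5, CYP86A8, LACS2, LTP1 and MYB106 to the lower ones. CER1 in Pro35SARR1 lay above the libraries labelled arr1 without overlap (log2 fold change 1.89, SE 0.684, adjusted p = 0.159, against 0.0353 with the block). The calls fell to 0 without either arr1 replicate, to 2 without Pro35SARR1 replicate 1 and to 1 without Pro35SARR1 replicate 2, and were 13 without either WT replicate.

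Short sequences around the L1 box were read because the gene of ATML1, a factor that binds it, was itself 14.9-fold higher in the libraries labelled arr1 than in WT. The motif was taken as TAAATGCA or TAAATGTA on either strand and searched in the TAIR10.1 genome with RefSeq gene models. In the 1000 bases before the start codon, 9 of the 32 genes (28.1%) held at least 1 box, beside 14.6% of 27443 protein-coding genes. The shares were 15.6% beside 7.15% in 500 bases and 15.6% beside 3.64% in 300 bases before the start codon, and 12.5% beside 5.51% in the 300 bases before the annotated gene start. The windows were settled on after their counts had been seen. Each line gives a gene, the position and strand, and 30 bases 5′ to 3′ on the gene's strand with the box in capitals, for the genes called in the libraries labelled arr1 against WT that held one. A box on the opposite strand reads TGCATTTA or TACATTTA.
PDF1, chr2:17827600-17827629, minus strand: atgggatagtgTAAATGCAcctgcaacaca
FDH, chr2:11173314-11173343, minus strand: aaaaattgtaaTAAATGCAaacataagatc
LTPG1, chr1:9740230-9740259, plus strand: tatggtatggaTGCATTTAatactcttcct
LTPG1, chr1:9740620-9740649, plus strand: acacaccacatTGCATTTAatacgcacaac
BDG, chr1:24034176-24034205, minus strand: ctatcaacattTACATTTActactctgtgc
GPAT6, chr2:15956000-15956029, minus strand: ttgatcgaagaTACATTTAcaaatggtgga

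The box shown for PDF1 begins 192 bases before its start codon, and that of FDH 273 bases before. Those of LTPG1 begin 499 and 109 bases before, that of BDG 555 and that of GPAT6 654 bases before. So 4 of the 8 genes that rose held a box in the 1000 bases before the start codon, and so did GPAT6, which fell. The share was 14.6% of all protein-coding genes in that window. Whether ATML1 acts on these genes was not tested. LACS1, DCR, HTH and ACR4 had no such letters in these windows. Outside the called genes, boxes lay before ABCG11, CER5, CER6 and GPAT8. AGATT, the core letters of the motif bound by type-B response regulators, occurred on either strand in 71.9% of the 300-base windows before the gene starts, beside 70.7% of all genes. In the 500 bases before the start codon AGATT occurred in 81.2%, beside 89.2% of all genes. A match is a string of letters and not a measured binding site.

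Of 36 other genes of the cuticle, 35 were in the table and 27 could be tested. In the libraries labelled arr1, 5 of the 27 were higher than in WT and 1 was lower, beside 1.09% and 1.9% of all genes tested. With the block 13 were higher and 2 lower, beside 6.23% and 9.51%. The median log2 fold change was 0.41, beside 0.00 over all genes tested. These calls depended on each library, falling to 0 without WT replicate 1 or either arr1 replicate and to 1 without WT replicate 2 or either Pro35SARR1 replicate. CER26 (AT4G13840), an acyltransferase-like relative of CER2, was at 1.57 and 1.48 CPM in WT, at 17.9 and 22.3 CPM in both libraries labelled arr1, and at 1.71 and 2.57 CPM in Pro35SARR1 (log2 fold change 3.71 against WT, SE 0.306, adjusted p = 0.0219, edgeR). The lipase gene LTL1 (AT3G04290) was at 0.724 and 2.85 CPM in WT and 37.2 and 35.2 CPM in both libraries labelled arr1 (log2 fold change 4.36, SE 0.560, adjusted p = 0.0322). ABCG13 (AT1G51460), a transporter for the cuticle of petals, was at 0.241 and 0.949 CPM in WT, where the first value is below the floor, and at 10.1 and 11.4 CPM in both libraries labelled arr1 (adjusted p = 0.0339). All 3 therefore stood low in both WT libraries and well above the floor in both libraries labelled arr1. Without WT replicate 2 the log2 fold change of the gene AT3G04290 (LTL1) was 5.71, and without WT replicate 1 it was 3.67.

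MYB96 (AT5G62470), a regulator of wax synthesis under drought, was at 2.77 and 1.69 CPM in WT and at 11.3 and 19.3 CPM in both libraries labelled arr1 (log2 fold change 2.76, SE 0.450, adjusted p = 0.0451). AT5G01075 was below the floor in WT, at 0 and 0.105 CPM, and at 2.61 and 2.43 CPM in both libraries labelled arr1 (adjusted p = 0.0485). The gene that fell was AT4G24140, an alpha/beta hydrolase gene, at 108 and 86.3 CPM in WT and at 28.3 and 27.9 CPM in both libraries labelled arr1 (log2 fold change −1.79, SE 0.206, adjusted p = 0.0274). In Pro35SARR1 against WT none of the 27 passed with edgeR, and at an unadjusted p under 0.05 0 were higher and 2 lower, CER9 and AT4G24140, beside 4.92% and 4.82% of all genes tested. The wax regulator MYB30 and the acetyl-CoA carboxylase gene ACC1, which feeds all elongation, overlapped between WT and the libraries labelled arr1, at 104 to 120 CPM and at 341 to 401 CPM over those 4 libraries.

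Markers of the epidermis and of shoot organs were set beside the cuticle genes. The summed level of ATML1 and PDF2 was 7.97 and 6.83 CPM in WT, 90.0 and 89.6 CPM in both libraries labelled arr1, and 4.45 and 7.95 CPM in Pro35SARR1. ATML1 itself (AT4G21750) was at 3.14 and 3.69 CPM in WT, 46.8 and 56.2 CPM in both libraries labelled arr1, and 4.45 and 5.28 CPM in Pro35SARR1 (log2 fold change 3.90 in the libraries labelled arr1 against WT, SE 0.202, adjusted p = 0.00704, edgeR). PDF2 (AT4G04890) was at 4.83 and 3.13 CPM in WT and 43.2 and 33.4 CPM in both libraries labelled arr1 (adjusted p = 0.0992, and 0.0286 with the block), and was close to 0 in Pro35SARR1 replicate 1. The authors' deposited table scores PDF2 higher, as given below, so these PDF2 levels are uncertain. All 6 markers of shoot organs and meristem (STM, FIL, YAB3, AS1, GRF5 and CLV3) were in the table. Their sum was 51.6 and 83.2 CPM in WT, 236 and 242 CPM in both libraries labelled arr1, and 51.7 and 69.6 CPM in Pro35SARR1, with GRF5 at 0 in WT replicate 1 and CLV3 at 0 in WT replicate 2. Most of the shoot sum in WT was AS1 (47.0 and 74.7 CPM). AS1 passed in arr1 against WT only with the block (adjusted p = 0.102 without it and 0.0186 with it, edgeR). STM, FIL, YAB3 and GRF5 passed without the block, with log2 fold changes of 2.41, 5.19, 5.47 and 6.36. So 4 of the 5 tested markers were higher, beside 1.09% of all genes tested. CLV3 had too few counts to be tested. In both lists the libraries labelled arr1 stood above the other 4, as they did for the 8 cuticle genes that rose.

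Markers of root and of other shoot tissues differed in their order among the genotypes. All 8 markers of endodermis and suberin were in the table, and their sum was 768 and 553 CPM in WT, 317 and 315 CPM in both libraries labelled arr1, and 581 and 372 CPM in Pro35SARR1. This sum was lowest in the libraries labelled arr1, as were GPAT6 and AT4G24140. Of its members, GPAT5, CYP86A1, CYP86B1, ASFT and FAR4 were each lowest there too. CASP1, ESB1 and MYB36 were not, and each had its lowest value in Pro35SARR1 replicate 2 (1.80, 13.0 and 24.2 CPM). For CASP1 and ESB1, WT replicate 2 (2.4 and 16.8 CPM) also lay below both libraries labelled arr1. Against WT, 3 of the 8 were lower in the libraries labelled arr1 without the block (GPAT5, CYP86A1 and FAR4) and 5 with it. Over all genes tested 1.9% were lower without the block and 9.51% with it. The sum of 5 root hair genes was 24.8 and 80.3 CPM in WT, 12.4 and 36.3 CPM in both libraries labelled arr1, and 48.7 and 175 CPM in Pro35SARR1, higher in replicate 2 of each genotype. Within each replicate number the root hair sum was lowest in arr1 and highest in Pro35SARR1. With the block 4 of the 5 root hair genes were higher in Pro35SARR1 than in arr1, beside 11.5% of all genes tested. PRP3 was among them (adjusted p = 0.00108, edgeR with the block). Without the block none of the 5 passed, beside 4.09% of all genes higher. The 5 stomatal lineage markers summed to 8.13 and 4.10 CPM in WT, 13.3 and 12.9 CPM in both libraries labelled arr1, and 2.42 and 1.88 CPM in Pro35SARR1, with the defining gene MUTE at 0 in 5 libraries. None of the 3 that could be tested passed in the libraries labelled arr1 against WT, with or without the block. Over all genes tested 6.23% were higher with the block and 1.09% without it. In Pro35SARR1 against arr1 all 3 were lower with the block, beside 8.82% of all genes tested. Without the block 1 was lower, the marker gene AT1G80080 (adjusted p = 0.0441, edgeR), beside 2.38% of all genes. Of 5 markers of photosynthetic cells 3 were analysed, and their sum was 2393 and 3200 CPM in WT and between 1237 and 2048 CPM in the other 4 libraries. Most of this sum was RBCS1A (1925 and 2685 CPM in WT). PSBO2 and PSBQ2 were lower in the libraries labelled arr1 than in WT (adjusted p = 0.0372 and 0.0473, edgeR), and RBCS1A passed only with the block. In Pro35SARR1 against WT all 3 were lower with the block, beside 0.89% of all genes, and 0 without it. The part of these cell types in the differences of the cuticle genes was not tested.

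**Figure D3:**
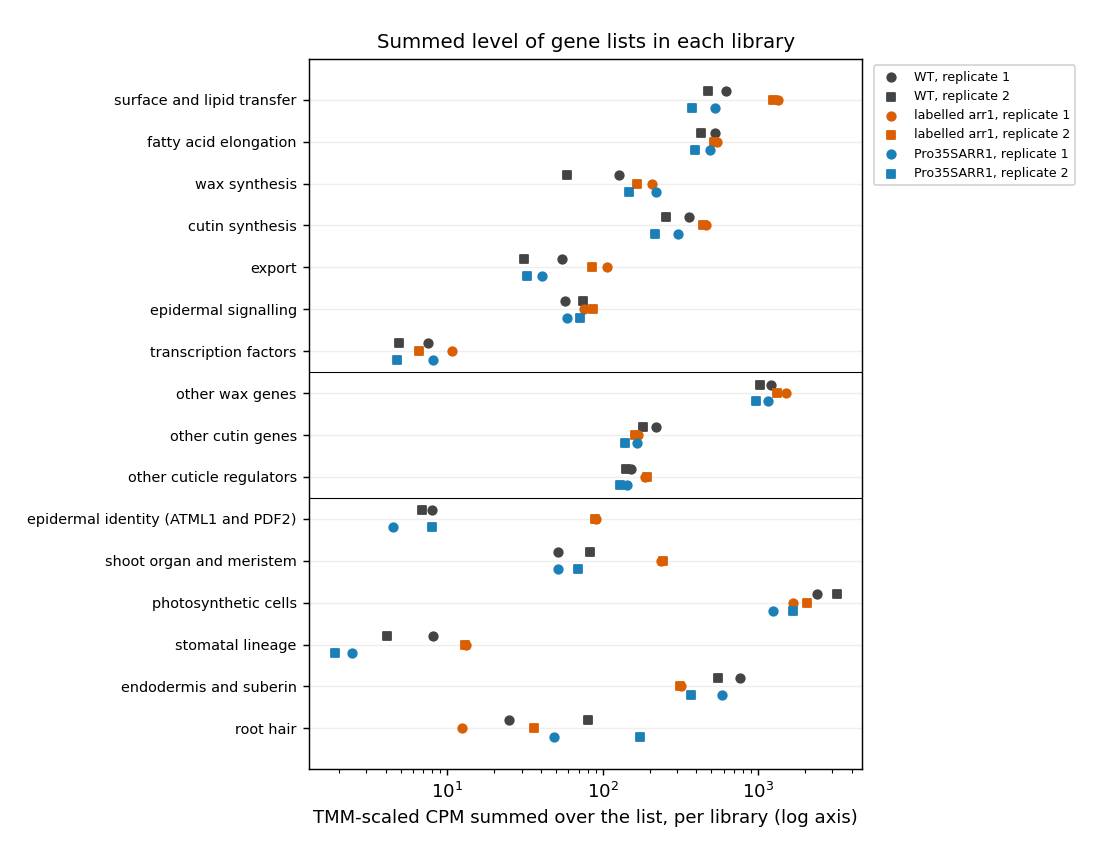
TMM-scaled CPM summed over each gene list in each library, on a log axis; circles are replicate 1 and squares replicate 2 of WT (grey), the libraries labelled arr1 (orange) and Pro35SARR1 (blue), with the 32 cuticle genes split by role at the top, other cuticle genes in the middle and cell type markers at the bottom. The libraries labelled arr1 lie at 90.0 and 89.6 CPM for ATML1 and PDF2, above the other 4 libraries, and at 317 and 315 CPM for endodermis and suberin, below them.

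The cuticle genes also shared a difference between replicate numbers. Replicate 1 was higher than replicate 2 for 25 of the 29 tested genes in WT, 19 in the libraries labelled arr1 and 23 in Pro35SARR1, beside 49.9%, 51.6% and 50% of all genes tested. It was higher in all 3 genotypes for 17 of the 29 genes (58.6%), beside 24.5% of all genes. The median ratio of replicate 1 to replicate 2 over the 29 genes was 1.37 in WT, 1.09 in the libraries labelled arr1 and 1.29 in Pro35SARR1. CER1 was 5.13 times as high in WT replicate 1 as in replicate 2, CER6 was 2.73 times and CER5 2.24 times as high. PDF1 went the other way, with a ratio of 0.453 in WT, and so did ALE2 and ACR4 in all 3 genotypes. Genes such as LACS1, DCR, BDG and GPAT6, with ratios of 1.24, 1.06, 1.098 and 1.22 in WT, were therefore measured more evenly than CER1, CER5 and CER6. Of the other genes called in arr1 against WT, HTH and ACR4 had ratios of 1.26 and 0.912 in WT. LTPG1, FDH and PDF1 were less even, at 1.45, 1.43 and 0.453.

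**Figure D4:**
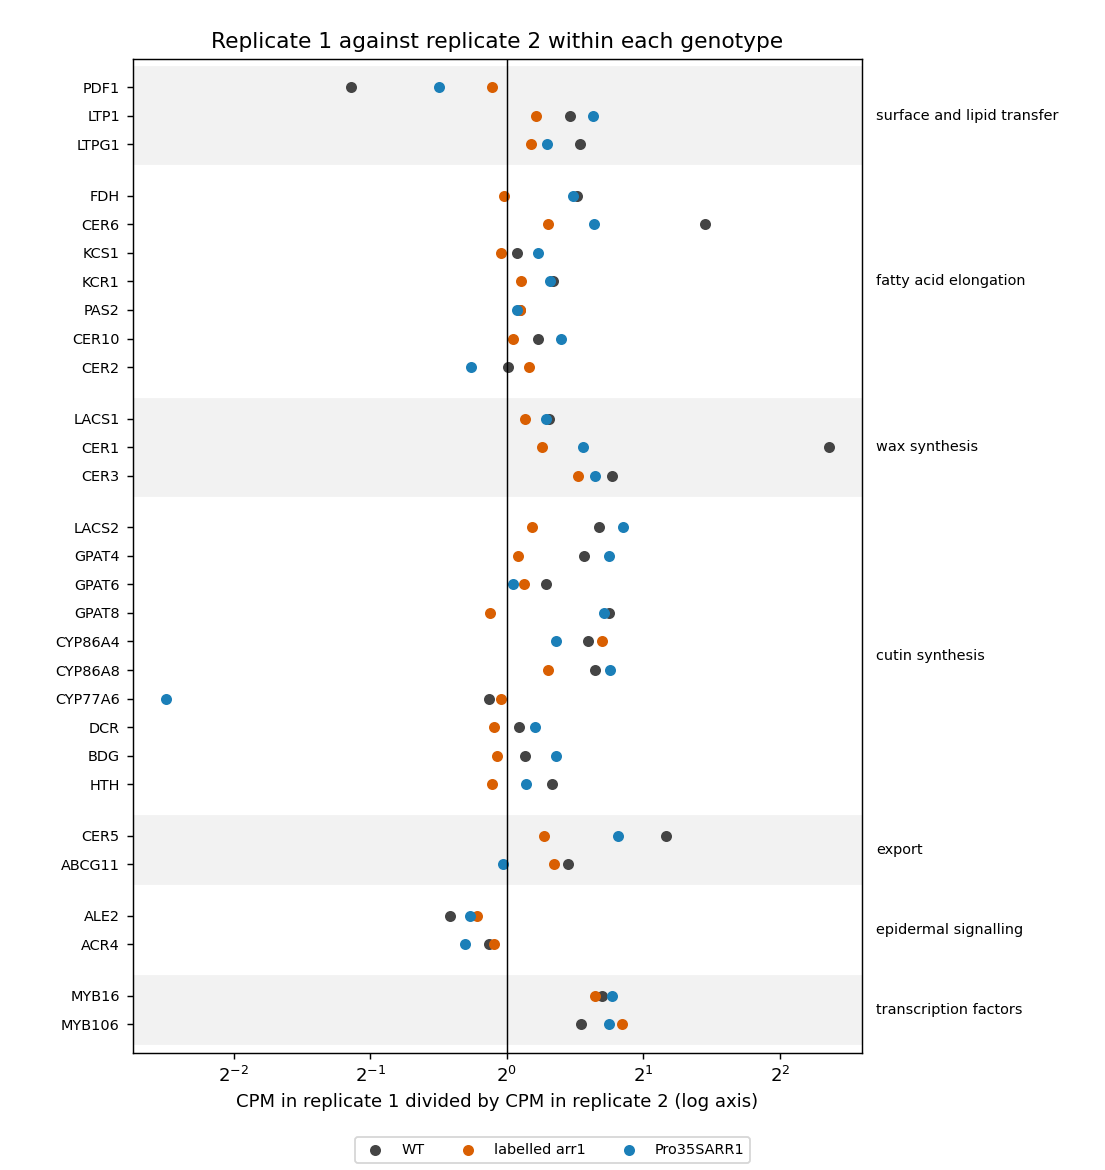
CPM in replicate 1 divided by CPM in replicate 2 within each genotype, on a log axis with base 2, for the 29 tested genes grouped by role; points are WT (grey), the libraries labelled arr1 (orange) and Pro35SARR1 (blue). Points to the right of 1 number 25 in WT, 19 in the libraries labelled arr1 and 23 in Pro35SARR1, and CER1 in WT lies farthest right at 5.13.

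For arr1 relative to WT the authors' deposited table names 437 genes, 260 of them up and 177 down. It holds 9 of the 32 cuticle genes, 8 as up and 1 as down, and 8 of the 9 passed here with edgeR without the block. The authors' deposited table gives PDF1 a log2 fold change of 3.85 with an adjusted p (FDR) of 1.22e-44, DCR one of 2.51, HTH one of 2.37 and GPAT6 one of −1.41. The gene in the authors' deposited table that did not pass here with edgeR without the block is ABCG11 (log2 fold change 1.13, FDR 0.00194). Under DESeq2 all 9 listed genes passed, and ACR4, which passed here, is not listed there. The FDR of the 9 listed genes was at most 0.00194, and the authors' cut-off may differ from the adjusted p under 0.05 used here. For GPAT6 the scores in the authors' deposited table (751 and 583 in WT, 291 and 212 in arr1) exceed the estimated counts summed here (667 and 548 in WT, 214 and 198 in arr1), and the reason was not found. The marker PDF2 differed too, with scores of 74 and 71 in WT and 617 and 591 in arr1. Its estimated counts here were 42.8 and 27.9 in WT and 376.3 and 293.5 in arr1. The authors list PDF2 as up (log2 fold change 3.06), while it did not pass here with edgeR without the block.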

How the data were processed

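CASAVA and DESeq are named in the submitters' processing notes, with no role. The sources used here do not give the aligner, quantifier, genome build or use of strand. Per the file headers, the authors deposited estimated counts and FPKM per isoform and library. The authors' deposited arr1 table has an adjusted p-value (FDR), a log2 value and, per library, a count that was treated as a score. Another 4 per-sample columns of that table were not used. Gene starts lay within 500 bp of TAIR10.1 for 97.4% of 25939 protein-coding genes, and sequences come from RefSeq's TAIR10.1. Not every matched sequence is reported here.

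Isoform counts were added up per gene, then rounded. After filterByExpr and TMM scaling, edgeR's quasi-likelihood test (version 4.0.16, R 4.3.3) was run with all 6 libraries, 1 mean per genotype and no block (3 residual degrees of freedom, common coefficient of biological variation 0.214), and Benjamini-Hochberg adjustment over 18083 genes. The script was tested on simulated data without a difference between replicate numbers, so its behaviour with such a difference was not tested. Alternatives were DESeq2 1.42.0, other scalings, no filter, 2 genotypes alone, limma 3.58.1 on log2(FPKM + 1), each library left out, and a replicate block. Same-numbered libraries, numbered by their titles, deviated together from their genotype means (Pearson's r 0.258, 0.44 and 0.255 across 18083 genes between the genotype pairs). The labels state no shared batch, so the main fit has no block, and this shared deviation stays in the spread behind its calls. Block values stand beside them where they change a call. Floors cover counting error only.

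The cuticle genes, other lists and markers were chosen with earlier results of these data known. All 32 were accounted for; those passing against WT, with or without the block, are given in every library.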

Additional observations from a re-analysis of the deposited data

How the results depend on the processing

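The 9 calls in the libraries labelled arr1 against WT, the 0 in Pro35SARR1 against WT and the 11 in Pro35SARR1 against arr1 became 18, 1 and 17 with the replicate block, which removed none of the calls. Leaving out 1 library gave 0 to 5 calls in the first comparison, 0 in the second and 0 to 13 in the third, with 0 in both the first and the third without either arr1 replicate. Such fits assume that a lone library varies like the others, and they have fewer degrees of freedom. Under DESeq2, other scalings, no filter on low counts, the 2 genotypes alone and limma on log2(FPKM + 1) each count stayed within 1.5 times the reported one, though single calls were lost. Against WT these were ACR4 under no filter, 2 genotypes alone and limma, and FDH and LTPG1 with 2 genotypes alone (adjusted p = 0.0502 and 0.0611). In Pro35SARR1 against arr1 GPAT8 lost its call with no filter. No called gene changed sign under any setting, and with libraries that did not overlap such a change was hardly possible. Among uncalled values signs were less stable: 8 of the 29 genes changed sign under at least 1 setting in the first comparison (log2 fold changes up to 0.23 in size), 14 in the second (up to 0.45) and 4 in the third (up to 0.38). After these were seen, single genes were followed through every setting only in comparisons where they passed, and CER1 in all. CER1 in the first comparison, at −0.21, turned to 0.14 with limma on FPKM and to 1.39 without WT replicate 1, with leave-one-out values from −0.95 to 1.39. Scaling by totals alone moved the median of all genes by 0.13, 0.02 and −0.11 in the 3 comparisons. The cause of these differences was not tested. Depth limits ALE1, CER4, WIN1 and CYP77A6, which rest on few counts or none.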
